A study of Mus musculus with 2 samples.

Results

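10 genes known from neurons were described here, all of them read in both deposited tables: the cytoskeletal and signalling genes Fscn1, Coro2b, Sept3, Dclk2, Dpysl5 and Hpca, the surface protein genes Megf11 and Celsr3, and the RNA genes Snhg11 and Miat. These 10 members are 10 of 16943 nuclear genes with a row in at least 1 table. By the row names, Fscn1, Dpysl5 and Miat are on chromosome 5, Coro2b, Megf11 and Celsr3 on 9, Sept3 on 15, Hpca on 4, Dclk2 on 3 and Snhg11 on 2. The members were chosen by their level over all kept wells, which earlier work on the same tables found higher with ISX-9, so that plate difference is given below as a description only.

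The cells came from organoids grown from the jejunum and ileum of Neurog3-RFP homozygous mice, and Ngn3-RFP-positive cells were sorted 1 to a well. The organoids of 1 plate had been given ISX-9 for 48 h and those of the other DMSO, its solvent, for 48 h. Both plates share the genotype, the reporter and the sort, and the labels give neither the number of animals nor that of organoid lines. ISX-9 (isoxazole 9) is a small molecule known for inducing neuronal differentiation.

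Neurog3 encodes the factor with which a gut cell enters the endocrine lineage, and the cells that leave this stage switch on secretory, vesicle and excitability genes that are also used by neurons. Enterochromaffin cells, which make serotonin with the enzyme Tph1, and goblet cells, which make the mucin Muc2, are among the epithelial cells that can be found in such a sort. Genes for growth cones, axon guidance and neuronal non-coding RNAs are best known from developing neurons.

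Wells with at least 2000 nuclear reads and 500 genes were kept, which were 290 of 384 on the ISX-9 plate and 300 of 384 on the DMSO plate. Median depth of the kept wells was 22509.5 nuclear reads with ISX-9 and 26340 with DMSO, and the median number of genes was 2981 with ISX-9 and 2629.5 with DMSO. Each treatment had 1 plate, so every difference given here sets 2 libraries against each other, without replicates and without a p-value. The intervals refer to the reads or the wells of 1 plate. Poisson intervals take each read as independent. The counts are reads and not molecules, and reads of some members lay mostly in a few wells. Those intervals can therefore be too narrow, and they leave out the spread between wells. Comparisons of Poisson intervals, overlaps included, are a description only. Levels are CPM, reads summed over wells and scaled to a total of 1000000 nuclear reads, with no correction for gene length, so the levels of different genes are not compared. Differences are log2 ratios of (CPM + 5) with ISX-9 on top, and their median was 0.15 over the 9106 genes that averaged 10 CPM or more. Neurog3 itself had 2990 CPM in the ISX-9 plate and 679 CPM in the DMSO plate, and its reads were found in 72.8% of the wells with ISX-9 and 49% of those with DMSO.

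The stretch of 250 bases before the start site was available for 8 of the 10 members in RefSeq's mouse annotation of build GRCm38.p6, and 3 of them are shown. Fscn1 is shown because its plate ratio was the highest of the members, Miat because its level followed that of Neurog3 most closely, and Dpysl5 because 86.7% of its ISX-9 reads lay in Neurog3-high wells. They lie at chr5:142960105-142960354 on the plus strand for Fscn1, chr5:112228949-112229198 on the minus strand for Miat and chr5:30711314-30711563 on the plus strand for Dpysl5. Each is written 5′ to 3′ and ends 1 base before the start site; capitals mark a match to any of the motifs named after them.
Fscn1: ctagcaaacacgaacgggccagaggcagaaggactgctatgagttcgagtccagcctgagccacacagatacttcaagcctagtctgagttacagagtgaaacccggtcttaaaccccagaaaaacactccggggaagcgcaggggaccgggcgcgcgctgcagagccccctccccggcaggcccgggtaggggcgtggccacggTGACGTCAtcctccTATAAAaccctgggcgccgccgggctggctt
Miat: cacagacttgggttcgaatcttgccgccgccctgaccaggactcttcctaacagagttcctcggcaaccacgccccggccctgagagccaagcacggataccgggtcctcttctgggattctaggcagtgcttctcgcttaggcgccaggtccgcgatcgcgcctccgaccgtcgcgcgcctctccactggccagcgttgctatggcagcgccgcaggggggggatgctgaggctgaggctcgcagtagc
Dpysl5: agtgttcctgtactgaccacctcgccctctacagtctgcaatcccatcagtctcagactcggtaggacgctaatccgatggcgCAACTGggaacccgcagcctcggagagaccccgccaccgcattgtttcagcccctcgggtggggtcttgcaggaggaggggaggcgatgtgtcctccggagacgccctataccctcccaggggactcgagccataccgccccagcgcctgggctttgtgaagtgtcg
The letters searched, on both strands, were the E-box CANNTG that basic helix-loop-helix factors bind, its form CAGATG, the cyclic AMP response element TGACGTCA and the TATA motif TATAAA. The motifs were chosen after the sequences had been seen, and any CAGATG is also counted as an E-box. The Fscn1 stretch held TGACGTCA starting 45 bases and TATAAA starting 31 bases before the start site. The Dpysl5 stretch held 1 E-box, CAACTG, and the Miat stretch held none of these letters. Over 32851 promoters of the same length, CANNTG was found in 66.2%, CAGATG in 14.4%, TGACGTCA in 1.55% and TATAAA in 12.4%, while among the 8 members with a promoter they were found in 4, 0, 1 and 1. Hpca has 3 such stretches and was counted if any of them matched, while the percents are over single promoters. The match is a description of letters, not of a bound site.

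Among the genes of the actin and microtubule skeleton, Fscn1 encodes fascin, which bundles actin in growth cone filopodia. It had 197.7 CPM (95% Poisson interval 189.7 to 205.9) in the ISX-9 plate and 0.610 CPM (0.279 to 1.16) in the DMSO plate. Its 2333 ISX-9 reads lay in 45.2% of wells, and its 9 DMSO reads lay in 3 wells. Fscn1 was thus close to unread in the DMSO plate, and its log2 ratio was 5.18. Coro2b, an actin-binding coronin of neurons, had 66.2 CPM in 52 ISX-9 wells and 2.30 CPM in 2 DMSO wells, with a log2 ratio of 3.28. In each of those 2 DMSO wells there were 17 reads, so the DMSO level of Coro2b rests on a pair of wells. Dclk2, a kinase with a doublecortin domain that binds microtubules, had 70.2 CPM in 41 ISX-9 wells and 12.5 CPM in 15 DMSO wells, a log2 ratio of 2.10. Its reads were the most concentrated among these genes in the ISX-9 plate, with 16.6% of them in 1 well.

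Sept3, a septin GTPase found mainly in brain, had 136.3 CPM in 40.3% of ISX-9 wells and 9.96 CPM in 5.67% of DMSO wells, with a log2 ratio of 3.24. Dpysl5, a collapsin response mediator protein that acts in neurite growth, had 49.1 CPM in 52 ISX-9 wells and 6.71 CPM in 9 DMSO wells, with a log2 ratio of 2.21. In the DMSO plate 43.4% of the Dpysl5 reads lay in 1 well. Hpca, which encodes the neuronal calcium sensor hippocalcin, had 128.03 CPM in 42.4% of ISX-9 wells and 5.22 CPM in 4.33% of DMSO wells, a log2 ratio of 3.70. Hpca overlaps Tmem54 on the opposite strand, and since no source used here states whether the counting used strand, reads cannot be told apart between them. Tmem54 had 1449 reads in the ISX-9 plate and 1245 in the DMSO plate, and its level correlated with that of Hpca at r = -0.07 over the 67.6% of ISX-9 wells that had at least 10000 reads.

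Of the surface protein genes, Megf11, which in the mouse retina sets the spacing of neurons of 1 type, had 52.5 CPM in 61 ISX-9 wells and 0.474 CPM in 3 DMSO wells, a log2 ratio of 3.39. Its 620 ISX-9 reads stood against 7 DMSO reads. Celsr3, an atypical cadherin of the planar cell polarity pathway that guides axon tracts, had 51.1 CPM (47.1 to 55.3) in 85 ISX-9 wells and 26.9 CPM (24.3 to 29.7) in 51 DMSO wells. Its log2 ratio was 0.81, the smallest of the 10 and the only one under 2-fold. Both plates therefore held Celsr3, in 29.3% of the ISX-9 plate's wells and 17% of the DMSO plate's.

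Of the RNA genes, Miat, a nuclear non-coding RNA of neurons also known as Gomafu, had 474.9 CPM in 54.1% of ISX-9 wells and 53.4 CPM in 15% of DMSO wells, with a log2 ratio of 3.04. Its 3 highest DMSO wells held 49.6% of the DMSO reads, so a few wells set it there. Snhg11, a small nucleolar RNA host gene that the GENCODE M21 annotation types as protein coding, had 104.9 CPM in 46.6% of ISX-9 wells and 5.56 CPM in 57 DMSO wells, a log2 ratio of 3.38. Snhg11 was read in many DMSO wells but at the lowest possible level: 43 of the 57 wells had 1 read, and the median was 5 reads in ISX-9 wells with the gene and 1 read in DMSO wells with it. Small RNA genes overlap Snhg11, Celsr3 and Miat in the GENCODE M21 annotation, and a sense intronic gene overlaps Dpysl5. On the opposite strand, the long non-coding RNA gene Gm26953 overlaps Miat, an rRNA gene overlaps Coro2b and a pseudogene overlaps Dclk2. Reads of all these were not separated.

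Counted over the members, 9 of 10 were at least 2-fold higher in the ISX-9 plate, where 4.51% of all 9106 were, but this contrast chose the members and nothing is read from it.

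**Figure D1:**
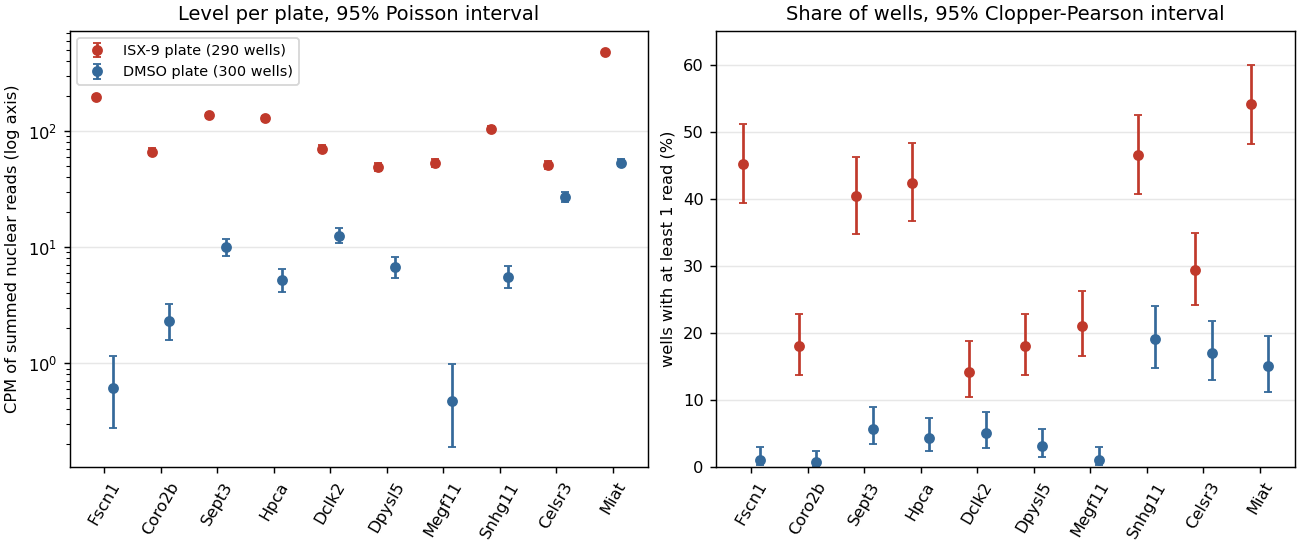
CPM of reads summed over kept wells on a log axis (left) and percent of wells with at least 1 read (right) for each member, in the ISX-9 plate (290 wells) and the DMSO plate (300 wells), with exact 95% intervals. The ISX-9 point lies above the DMSO point for every member, and the points of Celsr3 lie closest together in CPM.

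Wells were sorted into classes by their own Neurog3, Tph1 and Muc2 levels, none of which is a member: at least 1000 CPM of Neurog3 alone (Neurog3-high), of Neurog3 and Tph1 together, of Tph1 alone (Tph1-high), of Muc2 alone (Muc2-high), or of none of them (unclassed). The ISX-9 plate had 84 Neurog3-high, 15 Neurog3 and Tph1, 43 Tph1-high and 36 Muc2-high wells, and the DMSO plate 33, 11, 47 and 81. Unclassed wells made up 36.2% of the ISX-9 plate and 41.7% of the DMSO plate. A further 7 ISX-9 wells and 3 DMSO wells held Muc2 with another of these genes and are left out of the class values. Median nuclear reads were 28172.5 in Neurog3-high and 13357.5 in Muc2-high ISX-9 wells, against 24056 and 37313 in those of the DMSO plate.

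Within the ISX-9 plate the members divided into groups with different wells. The class with the highest CPM was Neurog3-high for 5 of 10 members (19.2% of genes), Neurog3 and Tph1 for 2 (22.3%) and Tph1-high for 3 (19.4%). Muc2-high wells (17.8% of genes) and unclassed wells (21.4%) were highest for 0 members. The members were chosen as higher on the plate with more Neurog3-high wells, so these counts are a description only. Miat, Megf11 and Dpysl5 were centred on Neurog3-high wells. Miat had 1409 CPM in Neurog3-high wells, 1012 CPM in Neurog3 and Tph1 wells, 254.6 CPM in Tph1-high wells, 77.5 CPM in unclassed wells and 7.37 CPM in Muc2-high wells. Megf11 had 174.5, 81.5, 18.5, 2.36 and 2.46 CPM in the same order of classes, and 87.4% of its reads were in Neurog3-high wells. Dpysl5 had 161.6 CPM in Neurog3-high wells, 12.5 CPM in unclassed wells and at most 6.79 CPM in the other classes. Dpysl5 was thus all but unread in Tph1-high wells, where 4 reads were found in 2 of 43 wells.

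Sept3 and Hpca were read across both endocrine classes. Sept3 had 561.5 CPM where Neurog3 and Tph1 were both high, 237.3 CPM in Neurog3-high wells and 198.4 CPM in Tph1-high wells. Hpca had 255.8, 224.4 and 233.2 CPM in those classes, and its intervals (210.8 to 307.6, 208.1 to 241.7 and 208.1 to 260.4) overlapped. Both were nearly unread in Muc2-high wells, with 4 reads of Sept3 and 2 of Hpca over 36 wells.

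Snhg11 and Celsr3 were highest in Tph1-high wells, and Dclk2 in the classes with high Tph1. Dclk2 had 187.3 CPM (164.9 to 211.8) in Tph1-high, 176.6 CPM (139.6 to 220.4) in Neurog3 and Tph1 and 70.5 CPM in Neurog3-high wells, and the intervals of the first 2 overlapped. In Tph1-high wells 54.5% of the Dclk2 reads came from 1 well. Without the highest well of each class, Dclk2 had 91.04 CPM in Tph1-high, 128.4 CPM in Neurog3 and Tph1 and 55.4 CPM in Neurog3-high wells, so its place at the top of Tph1-high wells rests on 1 well. Snhg11 had 250.2 CPM in Tph1-high, 67.6 CPM in Neurog3-high and 106.5 CPM in Muc2-high wells, where 58.5% of its reads came from 1 well. Celsr3 had 147.3 CPM in Tph1-high and 73.7 CPM in Neurog3-high wells and no read in 36 Muc2-high wells. Its 95% Poisson interval reached 3.02 CPM in the Muc2-high wells, where 3 counts would be 2.46 CPM.

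Fscn1 and Coro2b were also read in wells with high Muc2. Fscn1 had 306.2 CPM (287.1 to 326.3) in Neurog3-high and 265.01 CPM (238.3 to 293.9) in Tph1-high wells, and these intervals overlapped. It had 154.5 CPM in unclassed and 55.7 CPM in Muc2-high wells. Coro2b had 145.5 CPM in Neurog3-high and 95.8 CPM in Muc2-high wells, but 1.48 CPM, from 2 reads, in Tph1-high wells. In the 36 Muc2-high ISX-9 wells, Coro2b was read in 9 wells with a median of 12 reads, and Fscn1 had 68 reads in 8 wells, whereas Miat had 9 reads in 9 wells, 1 in each. Of the 8 wells with Fscn1 4 had 1 read and the highest had 23, and of the 9 wells with Coro2b 2 had 1 read and the highest had 32. Free RNA was not measured, and its part in these reads was not tested. The DMSO plate had no Coro2b or Fscn1 read in 81 Muc2-high wells. The 95% Poisson interval of both reached 0.966 CPM there, and 3 counts over the class would be 0.786 CPM. With ISX-9 the interval of Fscn1 in Muc2-high wells was 43.3 to 70.6 CPM.

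The plates were also set side by side within each class. These class values use the same reads as the contrast that chose the members, so they are a description and nothing is read from the counts. In Neurog3-high wells 9 of 10 members were at least 2-fold higher in ISX-9 wells, where 9.49% of genes were. Their median log2 ratio there was 3.19, against 0.04 over all genes tested in that class. Each percent is over the genes that averaged at least 10 CPM in the class, and the other counts are of the members that did. In Neurog3 and Tph1 wells the count was 8 of 9 (21.1% of genes), in Tph1-high wells 7 of 7 (13.6%), in Muc2-high wells 3 of 4 (10.7%) and in unclassed wells 7 of 8 (5.17%). Over all 10 members the counts in these classes were 8, 8, 3 and 8. The limit of 10 CPM is a mean over both plates, and a member could pass it through its ISX-9 level. In Muc2-high wells all 4 that passed had under 10 CPM with DMSO, so the limited counts lean towards higher with ISX-9. In Muc2-high wells, where 6 members averaged under 10 CPM, the median log2 ratio of the 10 was 0.76. Miat had 1409 CPM in ISX-9 and 374.1 CPM in DMSO Neurog3-high wells, and Megf11 had 174.5 CPM in ISX-9 and 3.35 CPM in DMSO Neurog3-high wells. The DMSO plate therefore held Miat in cells of this class but almost no Megf11.

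Celsr3 was the exception within Neurog3-high wells, with 73.7 CPM in ISX-9 and 63.6 CPM in DMSO wells and overlapping intervals (64.5 to 83.9 and 51.4 to 77.7). In Neurog3 and Tph1 wells it had 65.7 CPM with ISX-9 and 108.5 CPM with DMSO, where 48.4% of the DMSO reads came from 1 of 11 wells. In Tph1-high wells it had 147.3 CPM with ISX-9 and 66.8 CPM with DMSO. Dpysl5 differed between the plates in Neurog3-high wells, with 161.6 CPM in ISX-9 and 52.2 CPM in DMSO wells, but in Tph1-high wells it had 4 reads with ISX-9 and 5 with DMSO.

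More wells of the ISX-9 plate were Neurog3-high (28.97%, against 11% in the DMSO plate). With the ISX-9 class levels weighted by the DMSO plate's mix of classes, Dpysl5 came to 23.04 CPM, Megf11 to 25.1 CPM and Miat to 254.6 CPM, and their log2 ratios to 1.26, 2.46 and 2.15. The ratio of Snhg11 was 3.49 with that mix and that of Fscn1 4.89. The ratios of Dpysl5, Megf11 and Miat were thus lowered by more than those of Fscn1, Coro2b or Dclk2. Coro2b, with 57.9% of its ISX-9 reads in Neurog3-high wells, came to 3.09, and Sept3 and Hpca to 2.86 and 3.32. Giving Neurog3-high wells less weight lowers genes read mostly there by arithmetic. The part of the class mix in the plate difference was not tested.

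**Figure D2:**
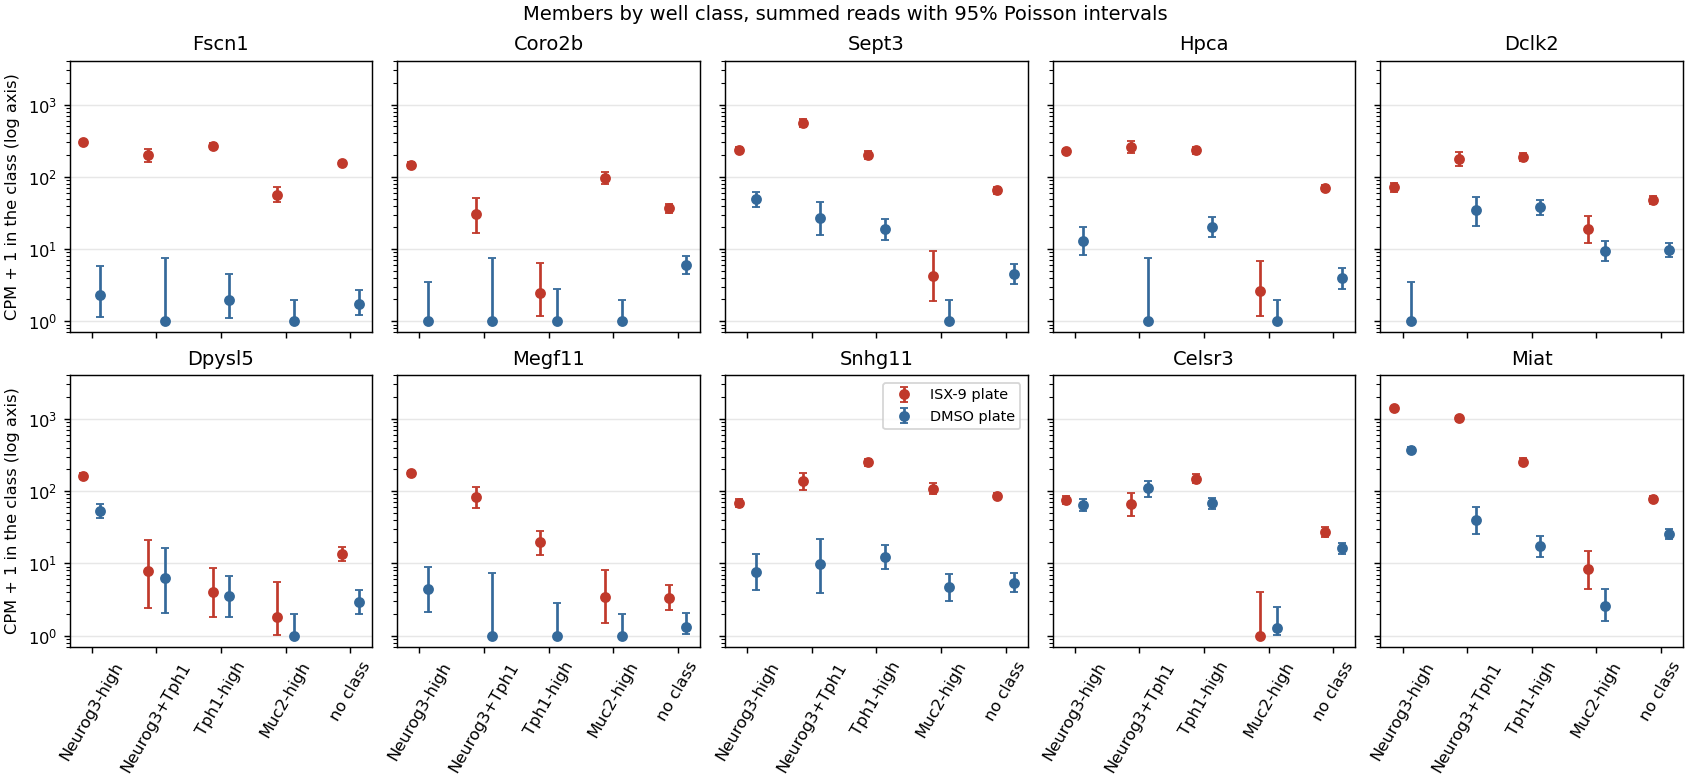
CPM + 1 of each member, on a log axis, in the wells of each class in the ISX-9 plate and the DMSO plate, with 95% Poisson intervals on summed reads. Megf11, Dpysl5 and Miat are highest in Neurog3-high wells with ISX-9, Coro2b is low in Tph1-high wells, and the intervals of Celsr3 overlap between the plates in Neurog3-high wells.

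Setting the members against Neurog3 in 5 steps separated them further. In the ISX-9 plate, 79 wells had no Neurog3 read, 42 had 1000 to 5000 CPM, 24 had 5000 to 10000 CPM, 39 had over 10000 CPM and the rest had under 1000 CPM. Miat had 116.8 CPM with no Neurog3 read, 88.96 CPM under 1000, 627.5 CPM from 1000, 1062 CPM from 5000 and 2235 CPM over 10000 CPM of Neurog3. Over the same 5 steps Megf11 had 4.98, 5.09, 75.8, 171.5 and 238.4 CPM, and Dpysl5 6.34, 10.2, 25.9, 122.7 and 271.8 CPM. From the step under 1000 CPM upward, all 3 increased with the Neurog3 level of the well. Dclk2 had 59.7, 67.9, 97.7, 73.8 and 64.5 CPM and had no such order. Snhg11 was highest, at 192.3 CPM, in wells with no Neurog3 read. In the DMSO plate the 2 highest steps held 7 and 11 wells, and Miat had 13.4, 18.5, 131.5, 1012 and 833.5 CPM over the 5 steps.

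**Figure D3:**
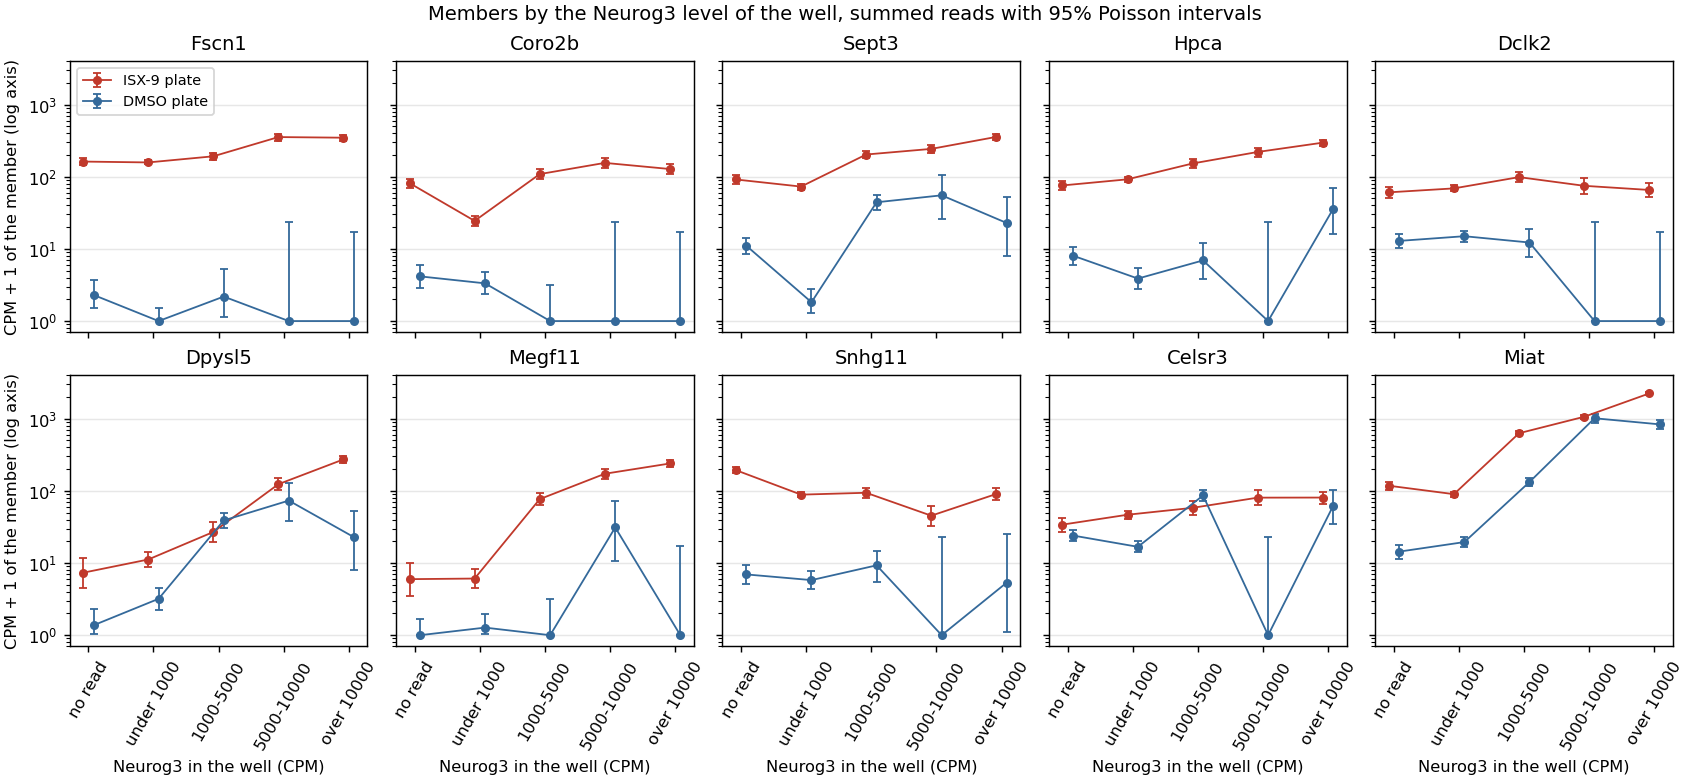
CPM + 1 of each member on a log axis against the Neurog3 CPM of the well in 5 steps, in the ISX-9 plate and the DMSO plate, with 95% Poisson intervals. With ISX-9, Miat, Megf11, Dpysl5, Hpca, Sept3 and Celsr3 climb with Neurog3 from the step under 1000 CPM upward. Dclk2 stays level and Snhg11 is highest without Neurog3. The 2 highest DMSO steps hold 7 and 11 wells.

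The members were also read together in 1 well. They were chosen for a higher level over these same ISX-9 wells. Plate differences in the well counts here and by class below are therefore a description only, and no other sets of 10 genes were counted. At least 3 of the 10 were read in 57.9% of the 290 ISX-9 wells (exact interval 52.02 to 63.7%) and in 6.33% of the 300 DMSO wells (3.86 to 9.71%). No member was read in 27 ISX-9 wells and 170 DMSO wells, and the median well had 3 members with ISX-9 and 0 with DMSO. At least 6 members were read in 61 ISX-9 wells, 37 of them Neurog3-high, 5 high in Neurog3 and Tph1, 8 Tph1-high and 11 unclassed, and in 0 of 300 DMSO wells. With each well thinned to 10000 reads, which left out 94 ISX-9 and 85 DMSO wells, 58.7% of the ISX-9 wells and 4.19% of the DMSO wells held at least 3.

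By class, at least 3 members were read in 65 of 84 Neurog3-high, 13 of 15 Neurog3 and Tph1, 29 of 43 Tph1-high and 8 of 36 Muc2-high ISX-9 wells, and in 50.5% of the unclassed ones. In the DMSO plate the same classes had 8 of 33, 2 of 11, 4 of 47 and 0 of 81 wells, and 4% of the unclassed ones. The unclassed ISX-9 wells were mixed. Among those with at least 10000 reads, the 44 wells with at least 3 members had 11189 CPM of Chgb, a granin of endocrine vesicles, and 662.1 CPM of Fev, a serotonin lineage factor, against 596.4 and 109.7 CPM in the 26 wells with 0 to 2 members. The difference was not one of endocrine genes alone: of 13 endocrine, epithelial and cycling genes looked at, 12 were higher in the 44 wells. Sis, the sucrase of enterocytes, had 387.7 CPM in the 44 wells and 23.7 CPM in the 26, Mki67, a gene of cycling cells, 176.2 and 53.8 CPM, and Lyz1, the lysozyme of Paneth cells, 106.8 and 359.8 CPM. Median reads were 71365 in those 44 wells and 35328 in those 26 wells, and the part of depth in this difference was not tested.

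**Figure D4:**
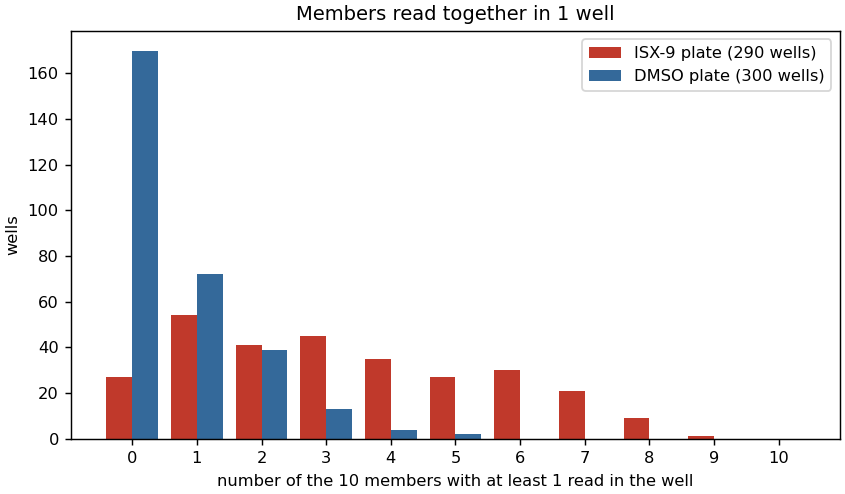
Number of wells (bars, from 0) by how many of the 10 members had at least 1 read, in the ISX-9 plate (290 wells) and the DMSO plate (300 wells). ISX-9 wells spread from 0 to 9 members with 27 wells at 0, and DMSO wells stop at 5 with 170 wells at 0. The members were chosen as higher with ISX-9, so the plate difference is a description only.

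Over the ISX-9 wells with at least 10000 reads (67.6% of 290), 9 of 45 member pairs had a Pearson r of at least 0.3 between their log2(CPM + 50). Of all pairs of genes read in at least 10% of those wells 0.341% did, a pool not matched to the members in level. In such DMSO wells (71.7% of 300) 1 member pair did. Fscn1, Coro2b and Megf11 were read in only 3, 2 and 3 DMSO wells, and the share of all DMSO gene pairs was not computed. Nothing is therefore read from the plate difference in pairs. The wells share 1 library and differ in depth, and r is given as a description. Megf11 and Miat had the highest r, 0.64, and were read together in 57 wells. Sept3 and Hpca had 0.47, Dpysl5 and Megf11 0.47, Dpysl5 and Miat 0.45, and Sept3 and Miat 0.44. Hpca and Miat had 0.41. Snhg11, Dclk2 and Coro2b were in no pair of at least 0.3. With Neurog3, Miat had an r of 0.72, Megf11 0.65, Dpysl5 0.45, Hpca 0.39 and Sept3 0.36, and Celsr3 had 0.31 with Tph1. In the DMSO plate Miat had 0.48 with Neurog3 and Celsr3 0.49 with Tph1, so both relations were also found without ISX-9. The r of a member with log10 reads of the well was between -0.17 and 0.17 in the ISX-9 plate.

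**Figure D5:**
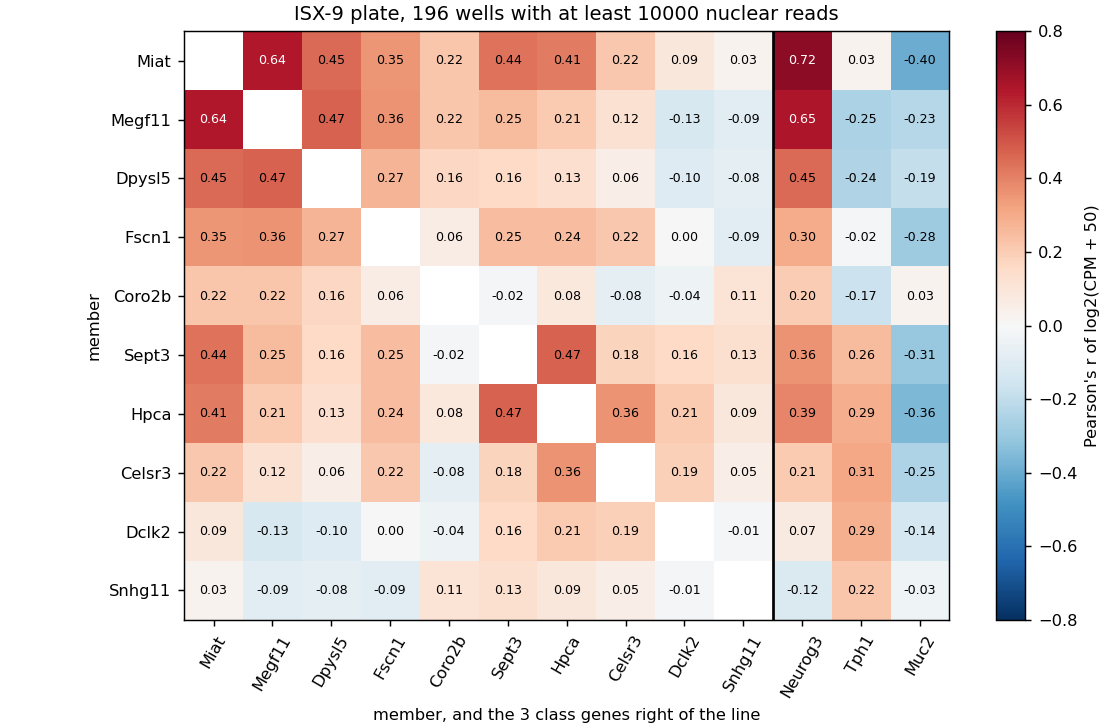
Pearson r of log2(CPM + 50) over the 67.6% of ISX-9 wells with at least 10000 reads between each pair of members, and between each member and Neurog3, Tph1 and Muc2 (right of the line), as colour and number. Miat has an r of at least 0.4 with Megf11, Dpysl5, Sept3, Hpca and Neurog3, and Snhg11, Dclk2 and Coro2b are under 0.3 with every other member.

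Genes whose level over wells was nearest to the mean of the 10 members were Cplx2 (r = 0.71), a complexin of vesicle release, Tubb3 (0.70), the neuronal tubulin, Olfm1 (0.69), Neurod2 (0.69), Vwa5b2 (0.67), Cacna1a (0.67), a calcium channel, Nkx2-2 (0.67), an endocrine transcription factor, and Epb4.2 (0.66). An r of at least 0.3 with that mean was found in 2.92% of 9727 genes. These were the genes read in at least 10% of those wells, without the members, ribosomal protein genes and predicted genes. Neurog3 had 0.66, Tph1 0.15 and Muc2 -0.45. Single members had other nearest genes: Neurod1 for Hpca (0.64), Epb4.2 for Megf11 (0.69) and Miat (0.74), Runx1t1 for Sept3 (0.50), Cadps for Dclk2 (0.42), Rtn2 for Celsr3 (0.45), Cdc14b for Dpysl5 (0.50), Marcksl1 for Fscn1 (0.42), Stac for Snhg11 (0.41) and Rybp for Coro2b (0.34).

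The relatives and pathway partners of the members came from lists drawn up with earlier results known. Of 29 measured relatives from the same gene families, 16 averaged at least 10 CPM over both plates, the limit used for every list here. Of these, 1 was at least 2-fold higher with ISX-9, where 4.51% of all 9106 genes were, and none lower. A gene could pass that limit through its level in 1 plate, so counts of changed genes in a list can run high. The median log2 ratio of the 16 relatives was 0.42, where that of all genes was 0.15. The relative past 2-fold was Crmp1, a relative of Dpysl5, with 65.2 CPM in 89 ISX-9 wells and 11.5 CPM in 19 DMSO wells. Of 10 measured planar cell polarity partners of Celsr3, 3 had at least 10 CPM and Fzd3, a Wnt receptor that guides axons with Celsr3, had 21.2 CPM with ISX-9 and 1.83 CPM with DMSO. Of 18 axon guidance genes 7 passed, none was 2-fold different, and the median log2 ratio was -0.03.

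Of 24 measured neuronal RNA-binding and transcription factor genes, 14 averaged at least 10 CPM over both plates. Of these 14, 9 were at least 2-fold higher with ISX-9, where 4.51% of all genes were. Their median log2 ratio was 1.33, where that of all genes was 0.15. Some genes named here, such as Rbfox3, Elavl3 and Meg3, passed the limit only through their ISX-9 level. Rbfox3, the NeuN antigen of neurons, had 54.9 CPM with ISX-9 and 2.17 CPM with DMSO, and Elavl3 had 21.4 CPM with ISX-9 and 1.42 CPM with DMSO. Of 10 cytoskeletal genes 7 were at least 2-fold higher, median 1.35, with Tubb3 at 85.2 CPM with ISX-9 and 12.2 CPM with DMSO. Of 13 synapse genes 3 were, median 0.67. Of 4 non-coding RNAs 1 was, Meg3, and the median was -0.23. Meg3 had 45.8 CPM with ISX-9 and 0.813 CPM with DMSO, and Malat1 4283 CPM with ISX-9 and 5714 CPM with DMSO. None of these 4 lists had a gene at least 2-fold lower. Rcor2 and Neurod1 of the first list are also enteroendocrine progenitor markers. That list summed to 1782 CPM with ISX-9 and 819 CPM with DMSO over all kept wells. It had 3628 and 2507 CPM in Neurog3-high wells and 3586 and 1524 CPM in Neurog3 and Tph1 wells. The cytoskeletal list had 1659 and 734 CPM over all kept wells, 2806 and 2138 CPM in Neurog3-high and 2506 and 1215 CPM in Neurog3 and Tph1 wells.

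Markers of other cells also differed between the plates. Of 7 enteric neuron markers, 1 had at least 10 CPM, the receptor Ret, with 48.1 CPM with ISX-9 and 32.5 CPM with DMSO. The list summed to 60.7 CPM in the ISX-9 plate and 38.6 CPM in the DMSO plate. Uchl1, a ubiquitin hydrolase abundant in neurons, had 9.74 CPM in 12 ISX-9 wells and no read with DMSO. Prph had 27 ISX-9 reads in 5 wells, Chrna3 3 reads, Phox2a 2 reads and Nos1 1 read, and none of them was read with DMSO. Th, the enzyme of dopamine synthesis, went the other way, with no read with ISX-9 and 6.03 CPM in 4 DMSO wells. Of 3 measured enteric glia markers none had at least 10 CPM, and they summed to 3.73 CPM with ISX-9 and 5.35 CPM with DMSO. Of 9 enteroendocrine progenitor markers 6 were at least 2-fold higher with ISX-9, and of 8 goblet markers 6 and of 6 Paneth markers 5 were at least 2-fold lower, where 1.19% of all genes were. Of 9 enterochromaffin markers 1 was at least 2-fold lower and none higher, and of 10 peptidergic markers 5 were lower and 1 higher. The part of such cell composition in the members' values was not tested beyond the class values above.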

How the data were processed

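Single Ngn3-RFP-positive cells from mouse organoids were profiled by SORT-seq (CEL-Seq2 chemistry on a 384-well plate), with 1 plate per treatment. The authors deposited raw read counts per gene and well; per the labels' protocols the primer carries a molecular barcode of 4 bases, giving 256 combinations, and counts exceed that, so they are reads and not molecules. The submitters' processing notes name BWA, with no version given, and build hg19, while the gene symbols are mouse ones; the strand setting and the rule for reads shared between genes are not given in the sources used here. Genes listed for 1 plate were set to 0 in the other. Among the deposited counts, ERCC and mitochondrial rows were left out of totals, and wells with at least 2000 nuclear reads and 500 genes were kept; doublets were not called. Every per-well column was used (0 not used).

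Reads were summed over wells as CPM with exact 95% Poisson intervals, shares of wells have exact 95% Clopper-Pearson intervals, and ratios are log2 of (CPM + 5), which understates low genes. No test was made, since each treatment has 1 library. The members and gene lists were chosen with earlier results of these data known. Named genes were the members, up to 4 genes with the largest absolute log2 ratio of a list, if they averaged 10 CPM or more, the 8 genes nearest to the members' mean and up to 3 for each member; the text gives the first. Uchl1, Th, Prph, Chrna3, Phox2a, Nos1 and the genes given for unclassed wells were added after their values were seen. One enteric neuron marker is not reported here and was left out of its list. Values were computed with python 3.11.15, numpy 2.4.6, pandas 2.3.3 and scipy 1.17.1, and figures with matplotlib 3.10.9. Promoters came from RefSeq and overlaps from GENCODE M21. Thinning, scaling, filters, pseudocounts and thresholds were varied.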

Additional observations from a re-analysis of the deposited data

Results flagged for a closer look

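The ISX-9 wells left out for low depth, which enter no comparison above, also held reads of the members. In 94 such ISX-9 wells the 10 members summed to 1415 CPM (95% Poisson interval 1202 to 1654), out of 110974 nuclear reads and in 31 wells. In 84 such DMSO wells they summed to 31.3 CPM (10.2 to 73.1), from 5 of 159699 reads. These values are noted because they come from wells outside the main measurement and exceed the DMSO level. Just inside the depth limit, kept wells under 5000 reads had 2046 CPM in 39 ISX-9 wells and 346.2 CPM in 42 DMSO wells, and all kept wells 1331 CPM with ISX-9 and 123.7 CPM with DMSO.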

How the results depend on the processing

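No paired analysis was possible because there is 1 plate per treatment. The number of members at least 2-fold higher with ISX-9 was 9 in every alternative run except without the top 5% of wells by reads, where it was 10, since the log2 ratio of Celsr3 was 1.03 there. Counts of wells with at least 3 members depend on depth: with every well thinned to 2000 reads they came to 78 of the 290 wells with ISX-9 and 0 of the 300 with DMSO, which allows a share of up to 1.22%, and with wells thinned to 10000 reads the DMSO count was 9 (4.19%). The count of members highest in Neurog3-high wells was 5, with 4 without the top 5% of wells 6 for the mean of per-well CPM and 6 without the highest well of each member in each class, where Hpca joined them, and the pairs with r of at least 0.3 numbered 9 in every alternative run. Of 130 log2 ratios of single members under 13 alternatives, 88 stayed within the counting interval, 42 moved beyond it and 0 changed direction. The counting interval takes reads as independent and can be too narrow, so the split into 88 and 42 depends on it. The lowest ratio was 0.56 for Celsr3 and the highest 6.95 for Fscn1. In log2, the factor between the plates is -0.15 for median-of-ratios scaling and -0.25 for ERCC scaling, before the 5 CPM are added, so the shift of a ratio differs by gene. The class mix, the highest wells of each class, the lower- and higher-numbered wells of each plate taken apart, and totals without the ribosomal precursor Rn45s (6.10% of nuclear reads with ISX-9 and 12.6% with DMSO) were added after seeing the data. Depth limits what a missing read says: 3 counts are 0.254 CPM in the ISX-9 plate and 0.203 CPM in the DMSO plate.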

Other observations

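Wells of the same number in both plates share a barcode, and all 384 numbers are listed in both. Fscn1, Coro2b, Dpysl5 and Megf11 were read in 0 wells whose number also had a read of that gene in the other plate. These genes were read in only 3, 2, 9 and 3 DMSO wells. Among kept ISX-9 wells, such shared numbers were 22 for Snhg11, 17 for Miat, 12 for Celsr3, 4 for Sept3, 3 for Hpca and 3 for Dclk2. The share over all genes was not computed, and nothing is read from these counts.

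The lower- and the higher-numbered wells of each plate gave the same direction for each member. Dclk2 differed most between them within the ISX-9 plate, with 37.2 CPM in the lower-numbered and 95.6 CPM in the higher-numbered wells, against 10.02 and 15.8 CPM in the DMSO plate.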
